A study of Mus musculus with 12 samples.

Results

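RNA binding, splicing and helicase genes were followed in the livers of mice that lack hemopexin, haptoglobin or both. The genes were chosen by name: a measured cDNA clone counted if its single gene symbol began with Hnrnp, Srsf, Sfrs, Sf3, Snrp, Ddx, Dhx, Prpf, Rbm, Ncbp, Trmt, Lsm, Pabp, Cpsf, Exosc or U2af. The size and sign of the ratios had no part in this rule, but a gene had to be measured, and its symbol depends on the spot numbering described below. The array carried 145 such genes on 216 clones, and 33 genes on 36 clones had values. That is 16.7% of the clones of these genes, against 13.8% of all 15600 clones on the array. The coverage was uneven: 5 of 17 Hnrnp genes and 8 of 28 Rbm genes were measured, but 1 of 25 Ddx genes, 2 of 9 Dhx genes, 0 of 4 Cpsf genes and 0 of 1 U2af genes. Of the 33 genes, 22 had a value on all 12 arrays.

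Hemopexin (Hx) binds free heme in plasma and haptoglobin (Hp) binds free hemoglobin. Each of 12 spotted cDNA arrays set liver RNA of a null pool against 1 pool of wild-type liver (Hp+/Hx+/), with 4 arrays for Hx-null (Hp+/Hx-/-), 4 for Hp-null (Hp-/-Hx+/) and 4 for HpHx-null (Hp-/-Hx-/-). All 4 genotypes were littermates from double heterozygous parents of mixed C57/BLJ6 X 129Sv background. A pool held the livers of at least 5 adult mice perfused with PBS, and no further treatment is named. RNA was labelled directly with Cy3 or Cy5, the null pool with Cy5 on replicates 1 and 2 and with Cy3 on replicates 3 and 4. The labels name no second pool of any genotype, so the arrays repeat the measurement of 1 pair of pools, and each p-value below measures only the spread between arrays.

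A transcript is bound by proteins from its first bases onward. Heterogeneous nuclear ribonucleoproteins (hnRNPs) coat the nascent RNA, small nuclear ribonucleoproteins (snRNPs) and their partners assemble the spliceosome on each intron, and the cap-binding and poly(A)-binding proteins mark the ends of the message. Helicases of the DEAD-box (Ddx) and DEAH-box (Dhx) families use ATP to remodel RNA and its complexes, the exosome degrades RNA, and tRNA methyltransferases modify tRNA. Hepatocytes need this machinery for their large output of plasma protein messages.

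An array held values for 3009 to 4165 of 31200 spots, and 2151 clones were measured in all. Gene names rest on a spot numbering that was inferred from the data, in which spot k takes the annotation of spot 31201 minus k. With it, 205 of 3476 pairs of clones of the same gene were both measured, against 63 with the direct numbering. Among markers of other cell types and of the tissue, 6 of 8 hepatocyte markers on the array were measured (Alb, Ttr, Apoa1, Serpina1e, Mat1a and Bhmt), 2 of 3 macrophage markers (Fcgr1 and Fcer1g), 0 of 3 red cell markers and 0 of 3 bile duct markers. A further 18 measured clones carried an annotation entry shared by Hba-a1, Hba-a2 and a histone gene, called the joined globin entry below.

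The direction of the ratios is not settled. Pairs of Hx-null arrays with equal labelled dyes correlated across clones at 0.83 and 0.84. In Hp-null such pairs correlated at -0.53 and -0.79, and in HpHx-null at -0.60 and -0.17. The first principal component, which held 72.0% of the sum of squares, put 6 arrays on each side. They are called block A (Hx-null 1 and 2, Hp-null 2 and 3, HpHx-null 1 and 4) and block B (Hx-null 3 and 4, Hp-null 1 and 4, HpHx-null 2 and 3). The blocks differ from the labelled dyes on Hp-null 1 and 3 and HpHx-null 2 and 4. Values are therefore log2 ratios with the deposited sign, after centring each array on its median. The labels list wild-type as channel 1 and the null pool as channel 2. Read as channel 2 over channel 1, a positive ratio stands for more RNA in the null livers. The labels also give the dye of each channel. Read as Cy5 over Cy3, a positive ratio would stand for that only where the null pool carried Cy5. Which reading holds is not stated in the labels.

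The genes on which the results turn are Ddx1, Trmt5 and Hnrnpr (a helicase, a tRNA methyltransferase and an hnRNP), which had positive ratios in more than one genotype, Prpf38b, whose fitted ratio was the lowest in HpHx-null, and Trmt1l, which differed most between the blocks. Their promoters, 250 bases before to 50 bases after the transcription start, are shown from RefSeq on the GRCm38.p6 assembly, 5′ to 3′ on the strand of the gene, to place the genes in the genome and to show what their start regions share. Capitals mark matches, on either strand, to 7 short motifs whose letters are given after the sequences.
Ddx1, chr12:13249125-13249424, minus strand: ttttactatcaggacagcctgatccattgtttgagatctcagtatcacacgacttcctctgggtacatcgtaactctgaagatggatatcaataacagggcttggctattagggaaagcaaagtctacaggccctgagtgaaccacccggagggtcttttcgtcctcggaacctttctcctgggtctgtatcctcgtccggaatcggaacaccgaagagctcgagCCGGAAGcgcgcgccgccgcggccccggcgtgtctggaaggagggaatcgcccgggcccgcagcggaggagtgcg
Trmt5, chr12:73286662-73286961, minus strand: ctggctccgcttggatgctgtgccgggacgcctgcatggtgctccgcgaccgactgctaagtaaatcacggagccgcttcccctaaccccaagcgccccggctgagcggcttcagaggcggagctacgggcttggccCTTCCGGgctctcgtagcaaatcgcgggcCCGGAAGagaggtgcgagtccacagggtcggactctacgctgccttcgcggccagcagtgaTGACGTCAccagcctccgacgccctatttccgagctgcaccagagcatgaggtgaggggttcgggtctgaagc
Hnrnpr, chr4:136310692-136310991, plus strand: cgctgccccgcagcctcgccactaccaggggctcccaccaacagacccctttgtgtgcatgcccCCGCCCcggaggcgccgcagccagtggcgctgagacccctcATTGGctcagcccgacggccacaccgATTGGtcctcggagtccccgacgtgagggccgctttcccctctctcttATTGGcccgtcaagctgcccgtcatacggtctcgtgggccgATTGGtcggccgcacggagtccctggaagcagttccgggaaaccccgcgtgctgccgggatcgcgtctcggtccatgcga
Prpf38b, chr3:108911680-108911979, minus strand: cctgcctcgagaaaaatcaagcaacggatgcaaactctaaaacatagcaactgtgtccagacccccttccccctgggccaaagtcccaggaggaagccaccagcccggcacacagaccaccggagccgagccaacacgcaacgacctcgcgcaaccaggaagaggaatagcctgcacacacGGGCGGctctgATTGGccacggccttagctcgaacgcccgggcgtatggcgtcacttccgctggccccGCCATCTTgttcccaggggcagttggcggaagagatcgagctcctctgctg
Trmt1l, chr1:151428292-151428591, plus strand: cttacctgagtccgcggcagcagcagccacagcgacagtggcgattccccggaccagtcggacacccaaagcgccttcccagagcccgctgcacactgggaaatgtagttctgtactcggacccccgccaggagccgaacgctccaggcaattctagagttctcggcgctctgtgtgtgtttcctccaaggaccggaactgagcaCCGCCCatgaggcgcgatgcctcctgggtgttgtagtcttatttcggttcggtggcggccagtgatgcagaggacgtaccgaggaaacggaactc

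The Hnrnpr sequence is the first of 2 promoters listed for that gene. Ddx1 held 1 ETS core, Trmt5 held 2 ETS cores and a CRE, and Hnrnpr held 4 CCAAT boxes and a GC box. RefSeq promoters were found for 29 of the 33 genes, 36 promoters in all. The ETS core, searched as CCGGAAG, stood in 11 of these 36 promoters (30.6%), against 8.86% of all 32851 promoters of the same length. A TATA box, searched as TATAAA, stood in 0 of the 36, against 13.6% of all promoters. The GC box, with the letters GGGCGG, stood in 18 of the 36, against 35.7% of all promoters. For the CCAAT box the share was 38.9% against 37.4%. The E-box, with the letters CACGTG, was found in 3 of the 36 member promoters (8.33%) and 7.15% of all. The YY1 motif, given by AAGATGGC, was found in 3 of the 36 (8.33%), all of Lsm7 or Prpf38b, and in 2.75% of all. The CRE, given by TGACGTCA, was found in 2 of the 36 (5.56%) and in 1.79% of all. Several promoters of 1 gene count separately, and counts this small leave these shares imprecise. No motif contains another, so matches overlap in part at most. The median GC content was 60.5% against 52.7%. These matches describe letters in the window and are not sites of binding.

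The question of the design is which liver transcripts differ when hemopexin, haptoglobin or both are missing. With the labelled dyes as a term of the fit, none of the RNA genes passed. In Hx-null against wild-type 0 of 32 genes tested had an adjusted p under 0.05 (limma with Benjamini-Hochberg adjustment), where 12 of all 1865 features passed (0.643%). Features are named genes plus the clones to which no single symbol could be given. Each such clone counts as its own feature, and 8 of the 12 were clones of the joined globin entry. In Hp-null 0 of 32 passed, with 0 of 2017 features (0%), and in HpHx-null 0 of 30, with 0 of 1711 (0%). At an unadjusted p under 0.05 the same fits gave 3, 2 and 2 RNA genes, beside 70 of 1865, 49 of 2017 and 99 of 1711 features. The RNA genes were Ddx1, Hnrnpr and Trmt5 in Hx-null, Ddx1 and Hnrnpr in Hp-null, and Ddx1 and Trmt5 in HpHx-null. The lowest adjusted p among them was that of Ddx1 in HpHx-null, 0.0706. Fitted on the 4 Hx-null arrays alone, where block and labelled dye coincide, 5 RNA genes passed: Ddx1, Hnrnpr, Ncbp2, Rbm12b1 and Trmt5. That fit called more of the whole array too, 133 of all features tested, against 12 in the fit on all arrays.

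A second fit, chosen with earlier results of these data known, replaced the labelled dye with the block. It gave 6 RNA genes that passed in at least one genotype: Hnrnpr, Trmt5 and Ncbp2 in Hx-null, Hnrnpr and Rbm12b1 in Hp-null, and Ddx1, Rbm12b1, Trmt5 and Prpf38b in HpHx-null. That is 3 of 32 in Hx-null, where 39 of 1865 features passed (2.09%), 2 of 32 in Hp-null, where 56 of 2017 passed (2.78%), and 4 of 30 in HpHx-null, where 92 of 1711 passed (5.38%). Clones of the joined globin entry made up 12 of the 39, 0 of the 56 and 4 of the 92. The block was read from the same values that it then absorbs, and its standard errors (SE) are smaller than those with the labelled dyes. Single arrays decided the counts: 0 RNA genes passed in Hx-null without its replicate 2, 3 or 4, 0 in Hp-null without its replicate 1 or 2, and 1, Ddx1, in HpHx-null without its replicate 1. The fitted ratio is the midpoint between the blocks. A call therefore says that a gene's midpoint lies away from the median of the array, also where the blocks lie on opposite sides of 0.

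**Figure D1:**
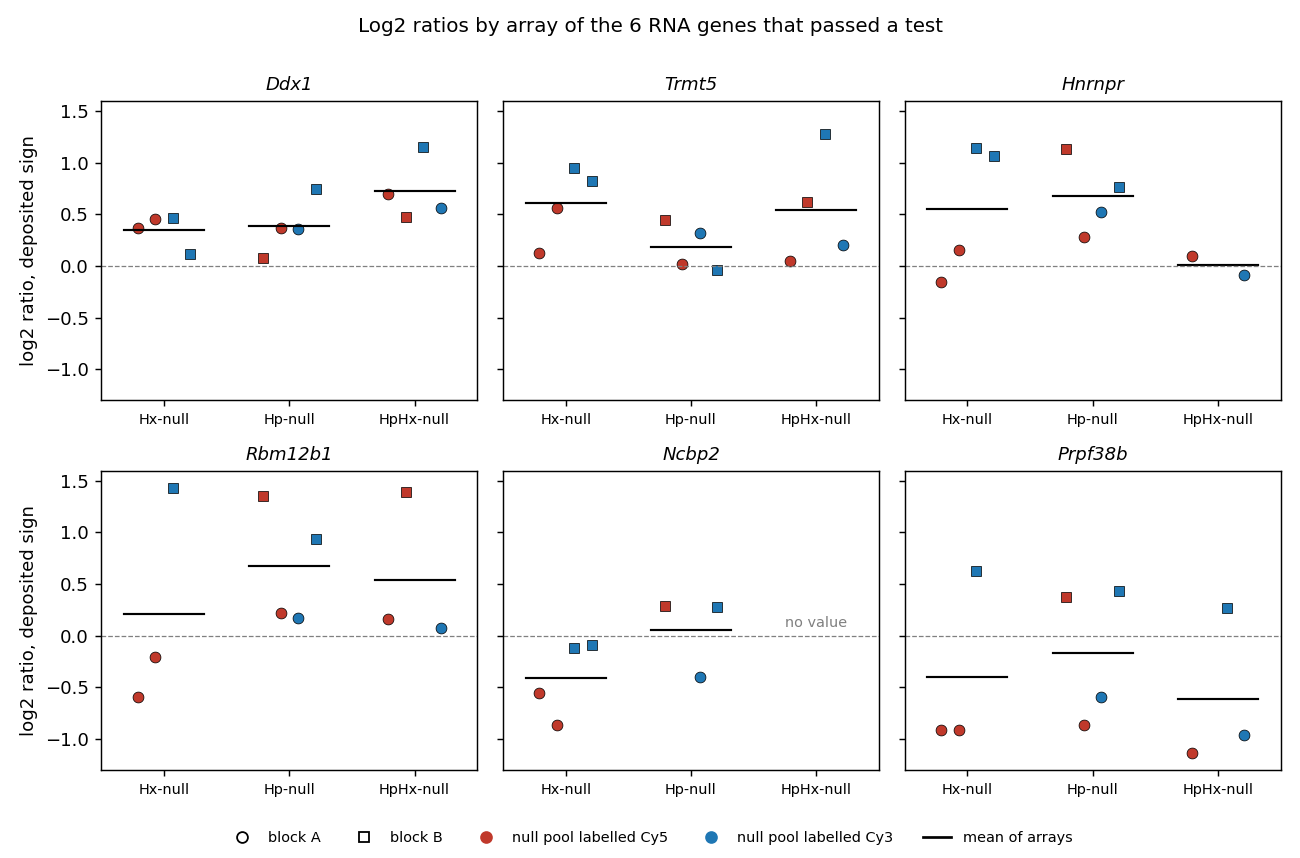
Log2 ratios with the deposited sign (y axis) of the 6 genes that passed with the block term, by genotype (x axis); each point is 1 array, circles are block A, squares block B, red and blue the labelled dye of the null pool, and the line is the mean of the arrays. Ddx1 lies above 0 on all 12 arrays, from 0.08 to 1.15, while Hnrnpr, Rbm12b1 and Prpf38b are split by block, and Ncbp2 has no value in HpHx-null.

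Helicases come first, because Ddx1 was the gene with the steadiest sign. Ddx1 is a DEAD-box protein found in the tRNA ligase complex and in RNA transport granules. Its log2 ratios on replicates 1 to 4 were 0.37, 0.46, 0.47 and 0.11 in Hx-null, 0.08, 0.37, 0.36 and 0.74 in Hp-null, and 0.70, 0.48, 1.15 and 0.56 in HpHx-null. All 12 values were positive. The lowest HpHx-null array (0.475) lay just above the highest Hx-null array (0.467). The Hp-null arrays overlapped those of HpHx-null, with Hp-null 4 above HpHx-null 1, 2 and 4. The mean was 0.72 ± 0.30 (SD, n = 4 arrays) in HpHx-null, beside 0.39 ± 0.27 in Hp-null and 0.35 ± 0.17 in Hx-null. In HpHx-null this is a ratio of 1.65-fold, with an SE of 0.12 and an adjusted p of 0.00637 in limma with the block term. In Hx-null and Hp-null the adjusted p-values were 0.151 and 0.107, above the threshold. The difference of HpHx-null from Hx-null was 0.37 (SE 0.17, adjusted p = 0.853 in limma), so a larger ratio in the double null was not shown.

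Among all features measured on 12 arrays, 9 of 1129 (0.797%) were positive on every one and 1 (0.0886%) negative on every one. Among the 22 RNA genes with 12 values these counts were 1, Ddx1, and 0. Arrays were also turned by their labelled dyes, with the sign reversed where the null pool carried Cy3. The means of Ddx1 were then 0.06, -0.16 and -0.13 in Hx-null, Hp-null and HpHx-null. The single sign of Ddx1 thus holds for the deposited orientation alone.

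The DEAH-box helicases behaved differently. Dhx36 unwinds G-quadruplexes in RNA and DNA. Its ratios were -0.42, -0.16, 0.61 and 0.64 in Hx-null, 0.17, -0.76, -0.32 and 0.47 in Hp-null, and -0.51, 0.03, 0.24 and -0.40 in HpHx-null. Every value of block A was negative and every value of block B positive, so the means of 0.17, -0.11 and -0.16 are midpoints of a split. Dhx37, which acts in the assembly of the small ribosomal subunit, ran the other way, with a mean of 0.28 over block A and -0.17 over block B. Neither of these genes passed in any comparison.

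Trmt5, the methyltransferase that modifies the guanosine next to the anticodon of many tRNAs, also had mostly positive ratios. Its values were 0.13, 0.56, 0.95 and 0.82 in Hx-null, 0.44, 0.01, 0.32 and -0.04 in Hp-null, and 0.05, 0.62, 1.28 and 0.21 in HpHx-null. All 4 arrays were positive in Hx-null and in HpHx-null, and 3 of 4 in Hp-null. With the block term the fitted ratio was 0.61 (SE 0.14, adjusted p = 0.0272, limma) in Hx-null and 0.54 (SE 0.14, adjusted p = 0.0358) in HpHx-null, or 1.53-fold and 1.45-fold. The HpHx-null call was lost in 10 of 18 alternatives, with each HpHx-null array left out among them. In Hp-null it was 0.19 (SE 0.14, adjusted p = 0.474). The single nulls differed by -0.43, Hp-null minus Hx-null (SE 0.19, adjusted p = 0.326 in limma), so the lower ratio of Hp-null did not pass as a difference. Turned by the labelled dyes, the means of Trmt5 were 0.04 in Hp-null, -0.27 in Hx-null and -0.20 in HpHx-null.

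Trmt1l, a relative of the tRNA dimethyltransferase Trmt1, gave the opposite picture. It read 0.97, 0.88, -1.05 and -1.15 in Hx-null, -1.14, 0.88, 0.92 and -1.50 in Hp-null, and 0.84, -1.14, -0.70 and 1.06 in HpHx-null. Block A lay between 0.84 and 1.06 and block B between -1.50 and -0.70. The difference of 2.04 between the blocks ranked 30 among 1969 features. The genotype means were -0.09, -0.21 and 0.02, and no comparison of genotypes passed. In Hx-null, where block and labelled dye coincide, turning the arrays gave a mean of 1.01, against 0.08 in Hp-null and -0.17 in HpHx-null.

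**Figure D2:**
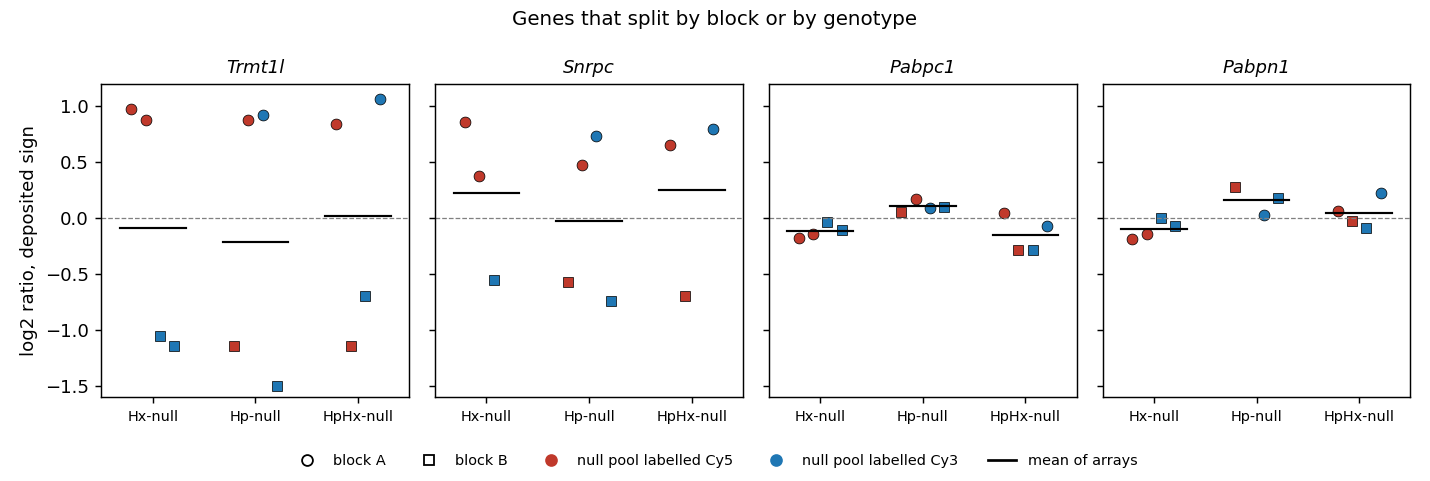
Log2 ratios with the deposited sign (y axis) of Trmt1l, Snrpc, Pabpc1 and Pabpn1 by genotype (x axis), 1 point per array; circles are block A, squares block B, colours the labelled dye of the null pool, lines the mean. Trmt1l and Snrpc separate by block in every genotype, while Pabpc1 lies below 0 on the 4 Hx-null arrays and above 0 on the 4 Hp-null arrays.

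Of the 5 hnRNPs, Hnrnpr passed with the block term in both single nulls. Hnrnpr binds nascent pre-mRNA. On replicates 1 to 4 it read -0.16, 0.16, 1.14 and 1.06 in Hx-null and 1.13, 0.28, 0.52 and 0.77 in Hp-null. In HpHx-null it had values on replicates 1 and 4 alone, 0.10 and -0.09, and was not tested there. The high values were those of block B (0.77 to 1.14), while block A ran from -0.16 to 0.52, and both of its HpHx-null values belong to block A. The fitted ratios were 0.55 (SE 0.10, adjusted p = 0.0155, limma with the block term) in Hx-null and 0.67 (SE 0.10, adjusted p = 0.00596) in Hp-null, against SEs of 0.22 and 0.22 with the labelled dyes. Turned by the labelled dyes, the means were -0.55 and 0.03.

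The other hnRNPs did not pass. Hnrnpa2b1, a reader of RNA export and splicing signals, measured -0.37, -0.45, 0.10 and 0.01 in Hx-null, 0.21 and 0.18 on replicates 1 and 4 of Hp-null, and -0.17, 0.20, 0.16 and -0.55 in HpHx-null. Its blocks did not overlap. Hnrnph2, which binds G-rich tracts and is close enough in sequence to Hnrnph1 for a cDNA probe to cross-hybridise, measured -0.40, -0.22, -0.13 and 0.11 in Hx-null, 0.16, -0.03, -0.04 and 0.19 in Hp-null, and -0.09, 0.13, -0.06 and -0.07 in HpHx-null. Its arrays overlapped between the genotypes and between the blocks. Hnrnpl, a splicing regulator that binds CA repeats, lay between -0.38 and 0.50, with block B above block A. Hnrnpk, which binds C-rich RNA, stayed within -0.14 to 0.20 and was positive on 4 of 4 Hp-null arrays after centring but on 2 of 4 as deposited.

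The spliceosome group held 12 genes, of which 1 passed, Prpf38b in HpHx-null. Prpf38b belongs to the Prp38 family of splicing factors. It read -0.91, -0.92 and 0.62 on Hx-null 1 to 3, 0.37, -0.86, -0.59 and 0.43 on Hp-null 1 to 4, and -1.14, 0.27 and -0.96 on HpHx-null 1, 3 and 4. Block A lay between -1.14 and -0.59 and block B between 0.27 and 0.62, so no genotype had a single sign. In HpHx-null the plain mean of the 3 arrays was -0.61, and the fit, which allows for the missing array of block B, gave -0.39 (SE 0.09, adjusted p = 0.0348, limma with the block term). With the labelled dyes as a term the value was -0.73 with an SE of 0.36, and the mean of the arrays turned by them was -0.15. This call was lost in 9 of 17 alternatives, among them leaving out HpHx-null replicate 1, 3 or 4, Hp-null replicate 1 or 2, or Hx-null replicate 2, with adjusted p-values up to 0.412.

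Prpf4b, a kinase that associates with the spliceosome, had the lowest HpHx-null mean of the RNA genes measured on 4 arrays. Its values were 0.13, 0.24 and 0.0001 on Hx-null 1, 3 and 4, 0.32, -0.46 and 0.39 on Hp-null 1, 3 and 4, and -0.25, 0.12, 0.06 and -0.72 in HpHx-null. Lsm7, a subunit of the ring that binds U6 RNA and also serves mRNA decay, read 0.15, -0.31, 0.36 and -0.17 in Hx-null, 0.12, -0.50, -0.60 and 0.24 in Hp-null, and -0.57, 0.12, 0.12 and -0.41 in HpHx-null. Both genes had negative means in HpHx-null (-0.20 and -0.18), well within the spread of their arrays (SD 0.38 and 0.36).

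The remaining spliceosome genes did not pass in any comparison. Snrpc, the U1 snRNP protein C, ran from 0.38 to 0.86 in block A and from -0.74 to -0.55 in block B. Snrpb2 of the U2 snRNP (-0.45 to 0.33) and Snrpe of the Sm core overlapped between blocks. Sf3a2 and Sf3b1, which help the U2 snRNP to hold the branch point, stayed between -0.35 and 0.35. Sf3a2 was negative on 4 of 4 HpHx-null arrays, where 6.52% of all features were. Prpf31, a protein of the U4/U6 snRNP, and Srsf10, an SR-like splicing regulator, had block B above block A. Rbm17 and Rbm39, factors of splice-site choice, overlapped between blocks, with values from -0.39 to 0.37 and from -0.56 to 0.51.

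**Figure D3:**
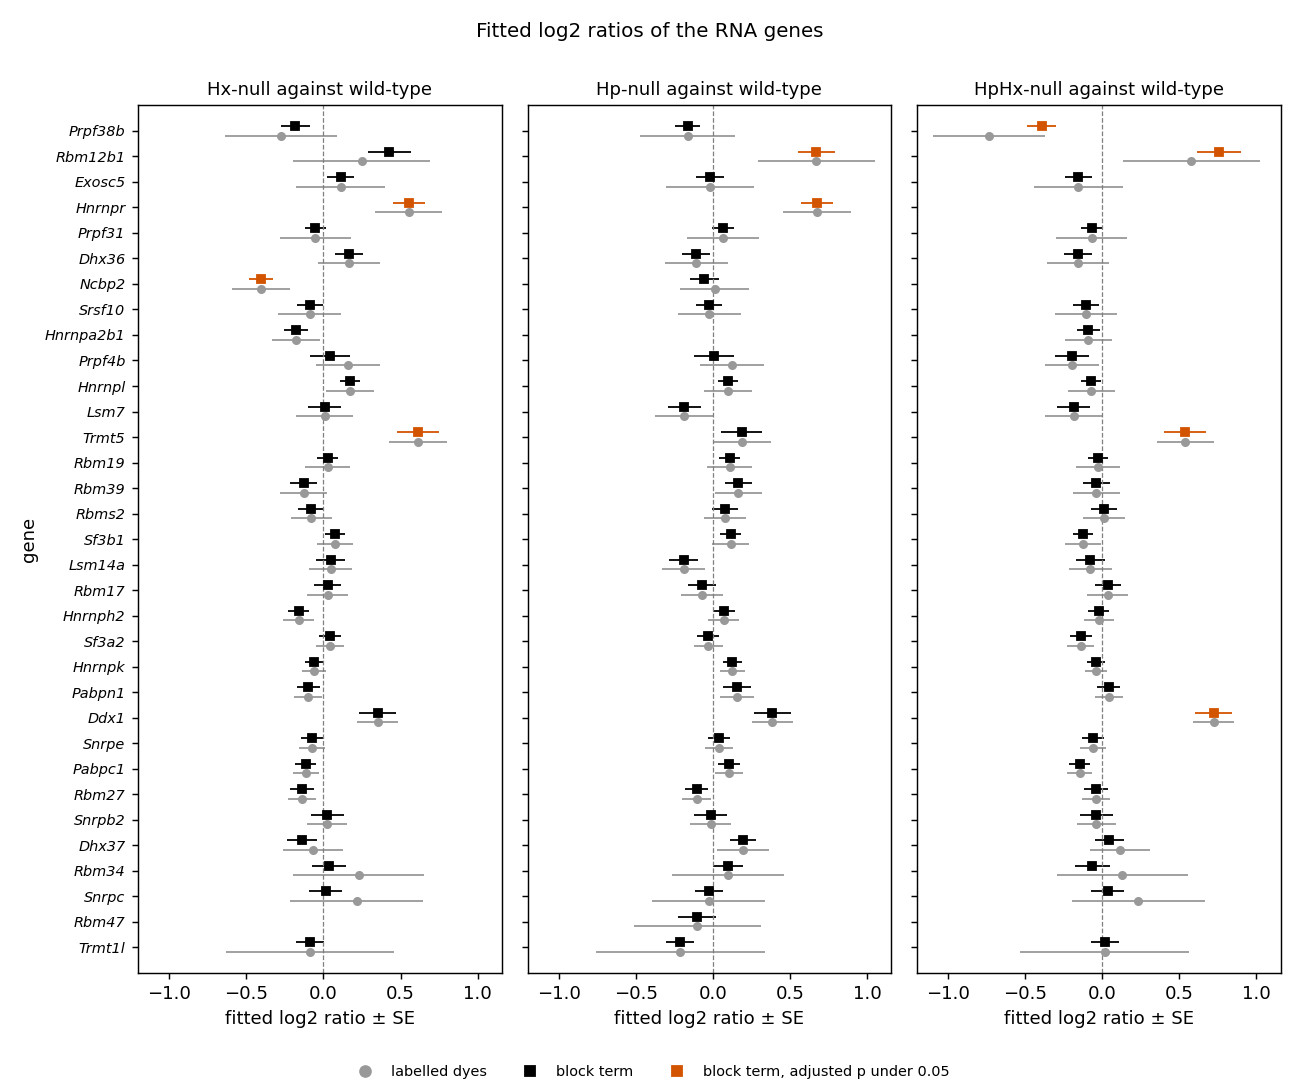
Fitted log2 ratio ± SE (x axis) of each RNA gene tested against wild-type (y axis), with a panel per genotype; grey circles are the fit with the labelled dyes, black squares the fit with the block term, and orange squares its adjusted p under 0.05. The median size of the block-term ratios is 0.11 in Hp-null, 0.09 in Hx-null and 0.07 in HpHx-null, and the calls are Hnrnpr, Trmt5 and Ncbp2 in Hx-null, Hnrnpr and Rbm12b1 in Hp-null, and Ddx1, Rbm12b1, Trmt5 and Prpf38b in HpHx-null.

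At the ends of the message, the cap-binding gene Ncbp2 was the only RNA gene that passed with a negative ratio in Hx-null. Ncbp2 encodes the small subunit of the nuclear cap-binding complex. Its Hx-null values were -0.55, -0.87, -0.12 and -0.09, all negative. In Hp-null it read 0.28, -0.40 and 0.27 on replicates 1, 3 and 4, and it had no value in HpHx-null. The fitted Hx-null ratio was -0.41 (SE 0.08, adjusted p = 0.0254, limma with the block term), and the mean turned by the labelled dyes was -0.30. Hp-null minus Hx-null gave 0.35 (SE 0.12, adjusted p = 0.246), where the fit allows for the missing Hp-null array.

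Pabpc1, the cytoplasmic poly(A)-binding protein, was chosen for description after its values were seen. It read -0.18, -0.14, -0.03 and -0.11 in Hx-null, 0.06, 0.17, 0.09 and 0.10 in Hp-null, and 0.04, -0.28, -0.28 and -0.07 in HpHx-null. The Hx-null and Hp-null arrays did not overlap. Hp-null minus Hx-null was 0.22 (SE 0.10, adjusted p = 0.320 in limma with the block term). Pabpn1, its nuclear counterpart that stimulates poly(A) tail synthesis, read -0.19, -0.14, -0.0001 and -0.07 in Hx-null, 0.28, 0.03 and 0.18 on Hp-null 1, 3 and 4, and 0.06, -0.02, -0.09 and 0.22 in HpHx-null. The same difference was 0.26 (SE 0.12, adjusted p = 0.330). Without centring of the arrays, 3 of 4 Hx-null arrays of Pabpc1 were negative and 3 of 4 Hp-null arrays positive.

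For RNA decay and storage, neither gene passed. Lsm14a, a P-body protein that represses translation, read 0.24, -0.31, -0.03 and 0.28 in Hx-null, -0.13, -0.36, -0.42 and 0.15 in Hp-null, and -0.38, 0.15, 0.11 and -0.19 in HpHx-null. Its genotypes and blocks overlapped. Exosc5, a core subunit of the exosome, had a mean of -0.52 over block A and 0.48 over block B, with no overlap, and genotype means of 0.11, -0.02 and -0.15.

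The 6 other genes of RNA-binding motif proteins included 1 that passed. Rbm12b1 has a close paralog, Rbm12b2, with which a cDNA probe may cross-hybridise. It read -0.59, -0.20 and 1.43 on Hx-null 1 to 3, 1.36, 0.22, 0.17 and 0.94 on Hp-null 1 to 4, and 0.16, 1.40 and 0.07 on HpHx-null 1, 2 and 4. Block B was high (0.94 to 1.43) and block A lay around 0 (-0.59 to 0.22). The fitted ratio with the block term was 0.67 (SE 0.12, adjusted p = 0.0165, limma) in Hp-null and 0.76 (SE 0.14, adjusted p = 0.0115) in HpHx-null. There 3 arrays gave a plain mean of 0.54 and the fit allowed for the missing array of block B. In Hx-null, also with 3 arrays, the fitted 0.43 had an adjusted p of 0.153. The HpHx-null call was lost without HpHx-null replicate 1 or 2. Turned by the labelled dyes, the means of Rbm12b1 were 0.12 in Hp-null and 0.49 in HpHx-null, and -0.74 in Hx-null.

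The others did not pass. Rbm27 was negative on all 8 arrays of the single nulls after centring, between -0.25 and -0.01, and as deposited on 4 of 4 Hx-null and 2 of 4 Hp-null arrays. Rbm34 had a mean of 0.65 over block A and -0.59 over block B. Rbm47, a cofactor of apolipoprotein B mRNA editing, had 0.63 and -0.73 over 4 and 3 arrays and was tested in Hp-null alone. Rbm19, which acts in ribosome assembly, and Rbms2 had block B above block A.

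**Figure D4:**
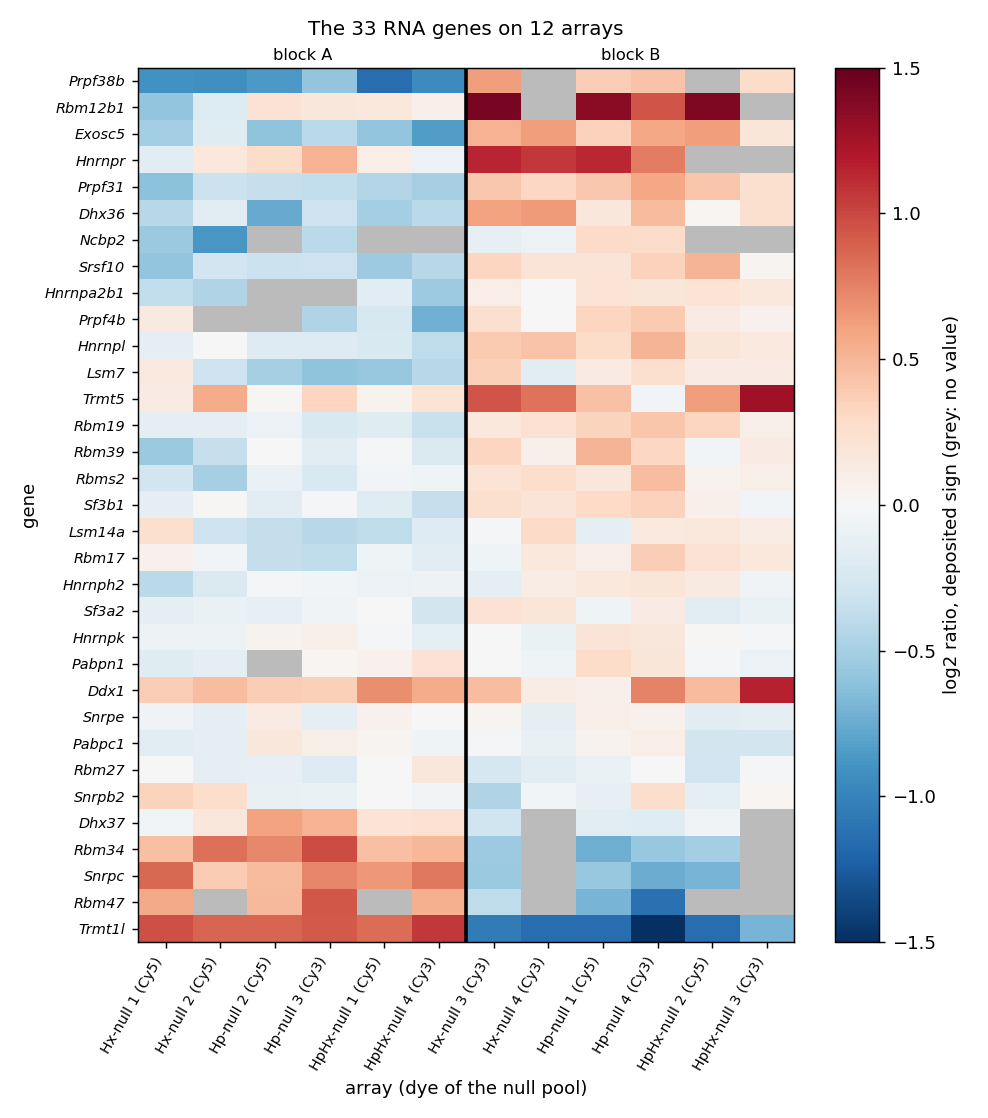
Log2 ratios with the deposited sign (colour) of the 33 RNA genes (y axis, ordered by the difference between blocks) on the 12 arrays (x axis, block A left of the line, block B right; the labelled dye of the null pool in brackets; grey has no value). The top genes, from Prpf38b, are lower in block A, the bottom genes, to Trmt1l, are higher there, and the row of Ddx1 is positive throughout.

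Taken over both directions, the RNA genes separated the blocks at about the share of all features. In 12 genes every array of block B lay above every array of block A, where 22.5% of 1969 features did so: Prpf38b, Rbm12b1, Exosc5, Hnrnpr, Prpf31, Dhx36, Ncbp2, Srsf10, Hnrnpa2b1, Hnrnpl, Rbm19 and Rbms2. In 5 genes block A lay above block B, where 31.5% did: Trmt1l, Rbm47, Snrpc, Rbm34 and Dhx37. The other 16 overlapped. The median difference, block A minus block B, was -0.33 over the RNA genes and -0.05 over all features, and the median size of the difference was 0.46 against 0.53. The blocks were defined on these values, so the counts are descriptions and carry no test. By role, the genes higher in block B were 3 of 5 hnRNPs, 3 of 12 spliceosome genes, 1 of 3 helicases, 1 of 3 cap and poly(A) tail genes, 1 of 2 decay and storage genes and 3 of 6 other RNA-binding motif genes. Those higher in block A were 1 of 12 spliceosome genes, 1 of 3 helicases, 1 of 2 tRNA methyltransferases and 2 of 6 other RNA-binding motif genes. These numbers are too small to set a role against the 22.5% and 31.5% of all features.

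Prpf31, Srsf10 and Snrpe each had a pair of measured clones, which were compared over the arrays of both blocks together. The clones of Prpf31 correlated at 0.86 over 11 arrays, with a median gap of 0.22. Those of Srsf10 correlated at 0.73 over 12 arrays, with a median gap of 0.26 and a largest gap of 0.59. Those of Snrpe correlated at 0.58 over 12 arrays with a median gap of 0.07, as both clones stayed near 0. Both clones of a gene share the RNA, the array and the block, so the clones are not replicates of a genotype. Prpf31 and Srsf10 are split by block, so their correlations include the shift between the blocks. Within block A the Prpf31 clones read -0.49 and -0.17 on Hx-null 2, and -0.26 and -0.62 on HpHx-null 1. Agreement of the clones within a block was not tested.

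**Figure D5:**
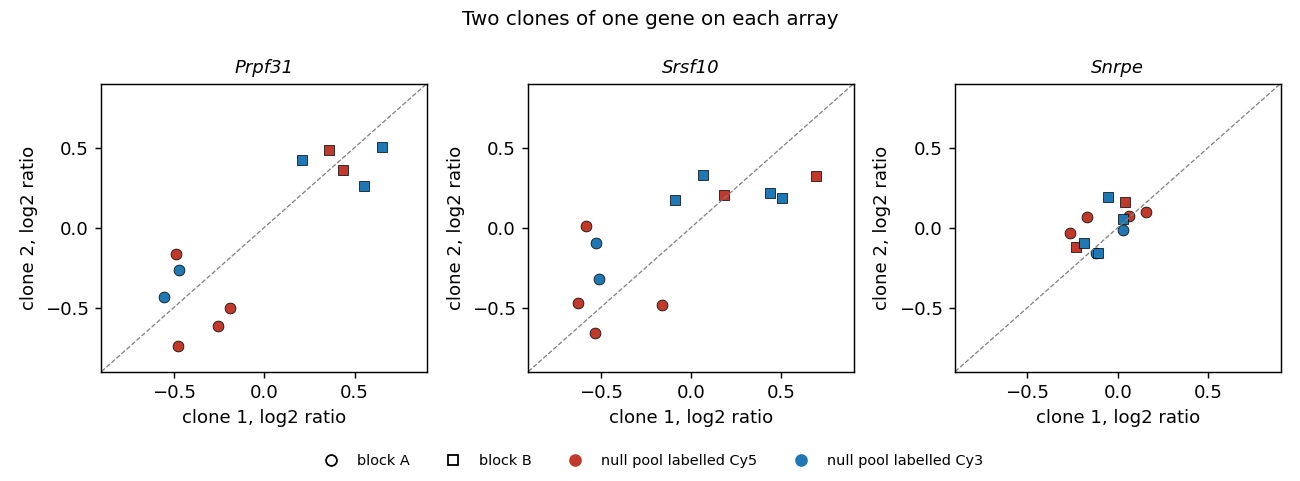
Log2 ratios of clone 1 (x axis) against clone 2 (y axis) of Prpf31, Srsf10 and Snrpe, 1 point per array, with circles for block A, squares for block B and colours for the labelled dye; the dashed line marks equal values. Both clones of Prpf31 separate the blocks (r = 0.86 over 11 arrays), and those of Snrpe stay near 0 (r = 0.58 over 12 arrays).

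Single signs within a genotype were read over genes with 4 of 4 values. In Hx-null, Ddx1 and Trmt5 were positive on 4 arrays, 2 of 26 genes, where 4.32% of all features were. Ncbp2, Pabpc1, Pabpn1 and Rbm27 were negative there, 4 of 26, where 5.93% were. In Hp-null, 5 of 29 genes were positive on 4 arrays, where 2.6% of all features were: Ddx1, Hnrnpk, Hnrnpr, Pabpc1 and Rbm12b1. Only Rbm27 was negative, 1 of 29, where 3.92% were. In HpHx-null, Ddx1 and Trmt5 were positive, 2 of 25, where 5.46% were, and Sf3a2 was negative, 1 of 25. These signs depend on the centring: as deposited, Hnrnpk and Rbm12b1 were positive on 2 and 3 Hp-null arrays, Pabpc1 on 3, and Trmt5 on 3 HpHx-null arrays.

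As a group the RNA genes stayed close to the median of the array. Their median ratio with the block term was 0.05 in Hp-null, 0.01 in Hx-null and -0.05 in HpHx-null, beside -0.01, -0.02 and -0.03 over all features. In HpHx-null 9 of 30 were above 0 (30%), beside 37.1% of all features. Between the genotypes none of the RNA genes passed in limma with either term. For Hp-null against Hx-null these were 0 of 31 genes, beside 0.595% of features (labelled dyes) and 1.14% (block term). For HpHx-null against Hx-null they were 0 of 30, beside 0% and 0.181%, and for HpHx-null against Hp-null 0 of 29, beside 0% and 0%. Set against the summed ratios of Hx-null and Hp-null, the double null gave 0 of 29, beside 0% and 0.0608%. An unadjusted p under 0.05 was reached with the block term by 8, 4, 2 and 2 RNA genes in these comparisons. Over all features it was reached by 271 of 1848, 92 of 1654, 210 of 1690 and 128 of 1646. With the labelled dyes it was reached by 0 RNA genes in each, beside 32, 16, 37 and 18 of all features.

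Markers of the tissue were fitted in the same way. Of 6 hepatocyte markers 3 passed with the block term in HpHx-null, with a median ratio of 0.42 and a range of 0.05 to 1.37, and 1 of 6 in each single null (median 0.35 in Hx-null and -0.09 in Hp-null). Of the 2 macrophage markers 1 passed in HpHx-null, with a range of -0.08 to 0.52. Of the clones with the joined globin entry, 12 of 16 passed with the block term in Hx-null with a median of 0.99. In Hp-null 0 of 17 passed, with a median of -0.13, and in HpHx-null 4 of 12, with a median of 0.41. With the labelled dyes, 0 hepatocyte and 0 macrophage markers passed in each null. The joined globin clones then passed in 8 of 16 cases in Hx-null, 0 of 17 in Hp-null and 0 of 12 in HpHx-null. In a pooled tissue, fewer cells of a type and less RNA per cell cannot be told apart. The part of these markers in the ratios of Ddx1, Trmt5 and the other RNA genes was not tested.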

How the data were processed

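The authors deposited log ratios by spot, read here as log2. How they were normalized and filtered, their base and their direction: not given in the sources used here. Duplicate spots and clones of 1 gene were averaged, and arrays were centred on their medians. The test was limma 3.58.1 in R 4.3.3: lmFit and robust eBayes on all 12 arrays, 1 coefficient per genotype and a dye term from the labelled dyes, Benjamini-Hochberg adjustment over all features, and a threshold of 0.05. A second fit used the block in its place. A feature was tested with values on 3 or more of 4 arrays in the genotypes compared, and missing values were not imputed. The members, gene lists and block were chosen with earlier results of these data known. Values on every array are given for genes that pass, and, per null, for the 3 highest and 3 lowest means among genes measured on 4 arrays. All 33 symbols were found by Entrez number in RefSeq. Alternatives covered centring, scaling, filter, dye term, direction, moderation, samples, numbering, replicate block and each array left out. The spread of the single wild-type control pool is not part of any test, and the number of arrays limits the precision.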

Additional observations from a re-analysis of the deposited data

Results flagged for a closer look

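In HpHx-null, Hnrnph2 had 1 array apart from the other 3: replicate 2 read 0.13 and the others -0.09 to -0.06. The gap was 0.850 of the range, above the critical 0.829 of Dixon's test for 4 values. This was 1 of 31 groups of 4 arrays among the genes given by array, and 2 of 80 over all RNA genes, where chance flags about 1 in 20. The other flagged group was Snrpb2 in Hp-null, with a larger gap of 0.959 of the range. There replicate 4 read 0.27 and the others -0.12 to -0.10.

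Pabpc1 was negative on all 4 Hx-null arrays and positive on all 4 Hp-null arrays after centring. The difference, Hp-null minus Hx-null, was 0.220 (SE 0.10), with an unadjusted p of 0.0403 and an adjusted p of 0.320 in limma with the block term. As deposited, 1 of 4 Hx-null and 3 of 4 Hp-null arrays were positive, so the split of signs depends on the centring.

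Pabpn1 was negative on all 4 Hx-null arrays, one of them at -0.0001, and positive on the 3 Hp-null arrays that held a value. Its difference was 0.257 (SE 0.12), with an unadjusted p of 0.0450 and an adjusted p of 0.330 in limma with the block term. As deposited, 2 of 4 Hx-null and 2 of 3 Hp-null arrays were positive.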

How the results depend on the processing

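With the labelled dyes, 0 RNA genes passed in each comparison. Fitting the arrays of Hx-null alone gave 5 in Hx-null, with either term, since block and dye coincide there. That fit called more of all features as well. A filter of 4 of 4 arrays gave 1 in HpHx-null, and so did leaving out the dye term. The block in place of the dyes gave 3, 2 and 4 in Hx-null, Hp-null and HpHx-null. With the block term, the unmoderated test gave 0, 0 and 0. In HpHx-null the filter of 4 of 4 arrays gave 2, and its arrays alone gave 2. Leaving out 1 array gave 0 to 3 in Hx-null (0 without Hx-null 2, 3 or 4), 0 to 2 in Hp-null (0 without Hp-null 1 or 2) and 1 to 4 in HpHx-null (1 without HpHx-null 1, and 2 without HpHx-null 2, 3 or 4 or Hp-null 1 or 2). Among the 18 alternatives to the block-term fit, Ddx1 in HpHx-null was lost under the unmoderated test alone (adjusted p = 0.0738). Trmt5 there was lost in 10 of 18. Turned by the labelled dyes, Hnrnpr and Trmt5 in Hx-null reversed to -0.55 and -0.27, and Ddx1 and Trmt5 in HpHx-null to -0.13 and -0.20. The cause was not tested. Deviations of arrays with the same replicate number correlated at -0.88 to 0.87, and 2 of 12 arrays correlated best with their own number. These correlations were positive for arrays of the same block and negative for arrays of different blocks. They therefore follow the block and cannot show whether replicate numbers pair the arrays. With the number as a replicate block, 0 RNA genes passed in each of the 7 comparisons. Of the other values for single genes, 388 counted as unchanged, 42 lost the call, 14 gained one and 7 moved. A fitted ratio counted as unchanged if it kept direction and side of the threshold. A genotype mean counted so if it changed by less than the SD of its arrays, whatever its sign. Turned by the labelled dyes, the mean of Pabpn1 in HpHx-null went from 0.04 to -0.02 and still counted as unchanged.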

Other observations

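A list of 192 other RNA genes without these name stems (export, editing, stress granule and RNA-binding proteins) had 131 on the array and 13 measured: Nono, Pcbp4, Nxt1, Thoc7, Matr3, Luc7l2, Ppih, Wbp4, Adarb1, Igf2bp1, G3bp2, Tia1 and Ybx1. In limma, 0 of 12 passed in Hx-null, 0 of 13 in Hp-null and 0 of 13 in HpHx-null, whichever term was used. Unadjusted p-values under 0.05 numbered 1, 0 and 1 with the block term and 0, 0 and 0 with the labelled dyes. Over all features the block term gave 252 of 1865, 385 of 2017 and 226 of 1711. In the block fit their median ratio was -0.02, -0.04 and -0.09, and in HpHx-null 2 of 13 were above 0. The lowest adjusted p there was that of Wbp4, a WW-domain protein of the spliceosome, with a ratio of -0.23 (SE 0.07, adjusted p = 0.103). Igf2bp1, an mRNA-binding protein, had -0.18 (SE 0.07, adjusted p = 0.268) in Hx-null.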
